A study of Mus musculus with 2 samples.

Results

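The nuclear genes of the mitochondrial respiratory chain were examined in mature hepatocytes (MHs) and small hepatocytes (SHs) of the mouse liver. Members were defined by gene symbol. Their symbols begin with Ndufa, Ndufb, Ndufc, Ndufs, Ndufv, Uqcr, Cox4 to Cox8 or Atp5, or are Sdha, Sdhb, Sdhc or Sdhd. Pseudogenes marked by -ps were left out, 3 in number. The rule found 92 of the 43280 counted symbols. Of these, 37 belonged by symbol to complex I, 4 to complex II, 8 to complex III, 17 to complex IV and 15 to complex V, and 11 matched the rule without encoding an established subunit of these complexes.

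The study asked how hepatocytes connect to bile duct cells, and compared hepatocyte populations that might form that connection. A single library was made from each population, both from C57BL6 mice whose age the labels give as 20 weeks, although the methods give a younger age for the mice of the study. No treatment or genetic change is named for either. Both populations came from the same mice. The methods name several healthy adult animals for the sequencing, and whether a library held cells of 1 of them or of all is not stated. The populations were parted by the speed at which they settle in a centrifuge, and dead cells were taken out of both with Percoll. MHs were not sorted, whereas SHs, which the labels call hepatocyte progenitors, were then sorted as cells that lacked CD31, CD45 and EpCAM and carried ICAM-1. Sorting, fraction and cell type therefore cannot be told apart.

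The respiratory chain passes electrons from NADH (complex I) and from succinate (complex II) through complex III to oxygen at complex IV, and complex V uses the resulting proton gradient to make ATP. Complex II is built from nuclear genes alone, and the other complexes combine nuclear subunits with a few that the mitochondrial genome encodes. Hepatocytes near the portal vein are known for more oxidative metabolism than those near the central vein.

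The MH library held 16979136 counted reads and the SH library 42356444. Values are reads per 1000000 counted reads (RPM), and ratios are log2 of SH over MH, computed from counts raised by 0.5 reads. The range after a ratio is its 95% Clopper-Pearson interval and takes in counting error alone. With 1 library of each population there was no replicate check and no test, so every comparison is between these 2 libraries. A level of 3 reads, taken as the limit of detection, equals 0.177 RPM in the MH library and 0.0708 RPM in the SH library. The 10 hepatocyte markers were strongly expressed in both libraries, and their log2 ratios went both ways around a median of 0.03, with 6 intervals above 0 and 4 below. They ran from -0.19 for Apoa1, an apolipoprotein, to 0.50 for Ass1, an enzyme of the urea cycle, and Alb, the albumin gene, had one of 0.13. Most endothelial, macrophage and stellate cell markers were lower in the SH library. The exceptions had few reads. Cd68 (macrophage), with 7 reads in the MH library and 15 in the SH library, had an interval that included 0. The stellate genes Col1a1 (1 and 6 reads) and Acta2 (1 and 3) had under 10 reads. The 10 endothelial genes summed to 90.5 RPM in the MH library and 4.60 in the SH library, and the 10 counted macrophage and leukocyte genes to 18.3 and 1.04. The 10 stellate cell genes held 356 reads in the MH library and 100 in the deeper SH library. Of all these, Lyve1 (endothelial) and Marco (macrophage) had 0 reads in the SH library. The 7 cholangiocyte genes summed to 14.0 RPM and 14.1 RPM, nearly all of it from Sox9, with a log2 ratio of 0.50 (0.16 to 0.85), and Spp1, with one of -0.33 (-0.63 to -0.02). In such bulk samples, fewer cells of a type and less RNA per cell cannot be told apart, and the part of these cells in the ratios below was not tested.

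Respiratory chain genes as a class took a slightly larger share of the SH library. The 92 genes summed to 0.871% of the reads in the MH library and 0.962% in the SH library, a log2 ratio of 0.14 (0.14 to 0.15). Of the 92 genes, 86 had at least 10 reads over both libraries. The median log2 ratio of these 86 was 0.13, where all 15521 genes with at least 10 reads had a median of 0.02, and 62 of the 86 had a ratio above 0. The shift was small for single genes. Only 3 of the 86 (3.49%) were at least 1.3-fold higher in the SH library with an interval wholly above 0, while 6.1% of all genes were. They were Atp5e, Atp5g2 and Cox7a1. Only Ndufb4 (1.16% of the 86) was at least 1.3-fold lower, against 8.54% of all genes. Neither count exceeds the background.

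Without a fold threshold, the interval lay wholly above 0 for 45 of the 86 genes (52.3%) and wholly below 0 for 5 (5.81%), where the shares of all genes were 16.8% and 15.5%. Respiratory chain genes are strongly expressed and so have narrow intervals. Among genes with at least 1000 reads the comparison is closer in depth: 42 of 72 members (58.3%) lay above 0 against 31.2% of the 5055 genes of that depth, and 4 (5.56%) lay below 0 against 21.1%. The members also differed less from each other than other genes did. At this depth the standard deviation of the log2 ratio was 0.13 over 72 members and 0.25 over the 4983 other genes. The 90th percentiles of members and other genes were 0.28 and 0.26, and the 10th percentiles were -0.05 and -0.23, so the distributions differed mainly on the low side.

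**Figure D1:**
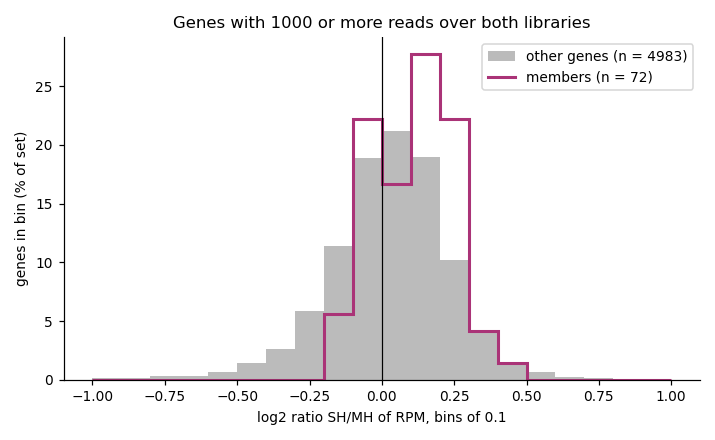
Distribution of log2 ratios of SH over MH (x axis, bins of 0.1) as a percentage of each set (y axis), for 72 respiratory chain genes (line) and 4983 other genes (grey), all with at least 1000 reads over both libraries. The members lie between -0.18 and 0.42, whereas other genes spread further on both sides, 31 of them left of the plotted range and 11 right of it.

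Promoters are shown for 5 genes that were picked because the stretch holds the letters of a motif. They are members of complexes II and V with ratios above 0, and the exception Ndufb4. NRF1 and GABP are transcription factors long known to act on respiratory chain promoters. The sequences are RefSeq's for GRCm38.p6, read 5′ to 3′ along the gene's own strand, which is the minus strand for all 5. Capitals mark GCGCANGCG, the core of the NRF1 motif, or CCGGAAG, the core of the GABP motif, on either strand. Positions are counted from RefSeq's start site, which for some genes lies inside the gene as GENCODE draws it.
Sdha: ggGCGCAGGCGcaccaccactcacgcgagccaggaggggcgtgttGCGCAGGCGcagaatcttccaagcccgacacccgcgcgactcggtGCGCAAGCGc
Sdhd: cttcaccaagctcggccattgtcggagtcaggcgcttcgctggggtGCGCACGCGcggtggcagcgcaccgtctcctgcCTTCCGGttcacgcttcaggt
Atp5e: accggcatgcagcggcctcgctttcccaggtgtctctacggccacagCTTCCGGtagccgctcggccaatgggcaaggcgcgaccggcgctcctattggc
Atp5g2: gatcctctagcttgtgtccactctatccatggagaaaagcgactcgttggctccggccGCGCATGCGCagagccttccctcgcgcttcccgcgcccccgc
Ndufb4: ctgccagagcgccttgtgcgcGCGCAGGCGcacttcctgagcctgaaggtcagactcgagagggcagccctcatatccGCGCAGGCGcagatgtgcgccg

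The Sdha stretch is chr13:74350241-74350340 and holds the NRF1 letters at 3 places, starting at -98, -55 and -10. The Sdhd stretch is chr9:50603875-50603974, with the NRF1 letters at -79 and the GABP letters at -46. The Atp5e stretch is chr2:174464151-174464250, with the GABP letters at -102. In Atp5g2, at chr15:102671048-102671147, matches on both strands overlap at -42 and -41. The Ndufb4 stretch, chr16:37654369-37654468, holds the NRF1 letters at -79 and -22. Since the stretches were picked to hold such letters, their presence here says nothing about the ratios.

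Over the whole promoter window, from 250 bases before to 50 bases after the start, 73 members had an entry. The NRF1 letters stood in 22 of them (30.1%), against 16.9% of 3665 promoters of genes with at least 1000 reads and 7.03% of all 27025 promoters. The median log2 ratio was 0.19 over the 22 members with the letters and 0.11 over the 48 without them that had at least 10 reads. The GABP letters stood in 17 (23.3%), near the 19.9% of genes with at least 1000 reads, and the medians with and without them were 0.16 and 0.13. AAGATGGCG, the core of the motif of YY1, stood in 7 promoters (9.59%, against 4.56%). These 7 genes, Atp5j, Atp5j2, Ndufa9, Ndufc1, Ndufs4, Ndufs6 and Ndufs7, had a median log2 ratio of -0.02, and the 63 without the letters had one of 0.16. TCAAGGTCA, the site of the orphan receptor ERR alpha, stood in Atp5g3 and Sdhd only (2.74% of the 73 promoters, against 0.273%). The motifs were chosen after the data were seen, each was searched on both strands, and a match to these letters is a description, not a binding site.

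The 5 complexes differed in the size of the shift. By summed reads, complex V had a log2 ratio of 0.21 (0.19 to 0.22) and complex II one of 0.20 (0.17 to 0.22). Complex III followed with 0.14 (0.11 to 0.16), complex IV with 0.09 (0.06 to 0.11) and complex I with 0.09 (0.07 to 0.10). The intervals of complexes V and II overlapped, as did those of IV and I, whereas the interval of complex III met none of the other 4. These intervals take in counting error alone and leave out the spread between the genes of a complex. In shares of the library, complex V held 0.278% of the reads in the MH library and 0.321% in the SH library, and complex I held 0.252% and 0.267%. The median of single genes gave a similar order for complexes II (0.22) and V (0.19) at the top and I (0.08) at the bottom, with complexes IV (0.17) and III (0.13) between them. Sums weigh the genes with the most reads, and Cox4i1 and Cox6a1, which held the most reads of complex IV, had ratios near or below 0.

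**Figure D2:**
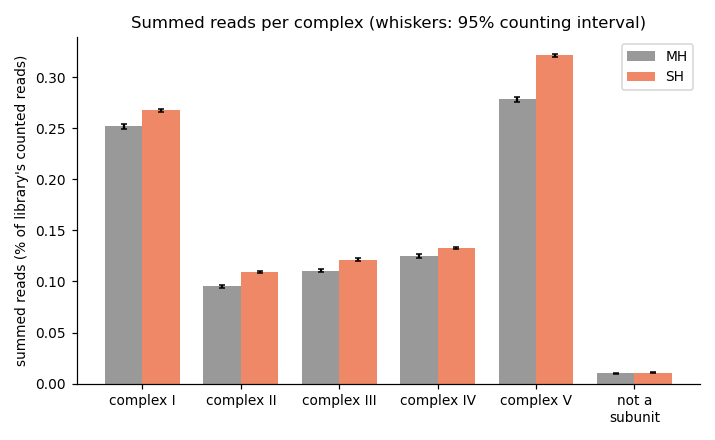
Summed reads of the genes of each complex as a percentage of the counted reads of the library (y axis, from 0), with 95% counting intervals as whiskers, in 1 library of MHs (grey) and 1 of SHs (orange). The SH bar is higher for each of the 5 complexes, most for complex V (0.278% and 0.321%), and the 11 matched genes that are no subunits stand at 0.0104% and 0.0106%.

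Complex II, succinate dehydrogenase, links the citric acid cycle to the chain and was the most uniform. All 4 genes had intervals above 0. Sdha, the flavoprotein that oxidizes succinate (GRCm38, chr13:74322254-74350280, 15 exons), had 498 RPM in the MH library and 575 in the SH library, a log2 ratio of 0.21 (0.17 to 0.24). Sdhb, the iron-sulfur subunit, had 186 and 201 RPM, a log2 ratio of 0.11 (0.05 to 0.17), the lowest of the 4. The membrane anchors Sdhc and Sdhd had 136 and 132 RPM in the MH library and 160 and 155 RPM in the SH library, and both had a log2 ratio of 0.23 (0.16 to 0.30). The interval of Sdhb met that of Sdha only at its end.

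Complex V, the ATP synthase, has a catalytic F1 head and a membrane part, Fo, joined by stalks. All 5 F1 genes had intervals above 0, with a median log2 ratio of 0.27. Atp5b, which encodes the catalytic beta subunit and had the most reads of all members (GRCm38, chr10:128083273-128090391), stood at 906 RPM in the MH library and 1025 in the SH library, a log2 ratio of 0.18 (0.15 to 0.20). Next to it, Atp5a1, the alpha subunit, stood at 661 and 799 RPM, a log2 ratio of 0.27 (0.24 to 0.30). These partners form a ring of alternating subunits, and their intervals did not overlap. The central stalk genes Atp5c1 (gamma) and Atp5d (delta) had log2 ratios of 0.22 (0.14 to 0.29) and 0.30 (0.22 to 0.38). Atp5e, the small epsilon subunit of the same stalk (chr2:174461072-174464105, 2 exons), had 2542 reads in the MH library and 8474 in the SH library. At 150 and 200.1 RPM, its log2 ratio of 0.42 (0.35 to 0.48) was the highest of the members with at least 200 reads, and it was 1.34-fold higher in the SH library.

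The 10 genes of Fo and the peripheral stalk had a median log2 ratio of 0.14, and 7 of them had intervals above 0. Their ratios ran from -0.01 (-0.08 to 0.06) for Atp5j2, a small membrane subunit, to 0.40 for Atp5g2. In the peripheral stalk, Atp5h had a log2 ratio of 0.25 (0.17 to 0.34), Atp5o one of 0.19 (0.11 to 0.26), Atp5j one of 0.11 (0.02 to 0.21) and Atp5f1 one of 0.09 (0.02 to 0.15). The intervals of Atp5k (0.16) and Atp5l (0.09), subunits near the dimer interface, included 0.

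The membrane ring of complex V is made of subunit c, a single mature protein encoded by Atp5g1, Atp5g2 and Atp5g3. Atp5g3 supplied most of the reads, with 3047 in the MH library and 8326 in the SH library, a log2 ratio of 0.13 (0.07 to 0.19). Atp5g1 had 828 and 2567 reads and a log2 ratio of 0.31 (0.20 to 0.43). Atp5g2 (chr15:102662864-102672352) had only 126 and 415 reads, and its log2 ratio of 0.40 (0.11 to 0.70) depended on how its copies were treated. The genome carries 4 near-identical copies of its coding sequence, of which 3 were counted, with 284 reads in the MH library and 601 in the SH library. With their reads added, the log2 ratio was -0.01 (-0.18 to 0.16).

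Atp5l, subunit g of Fo, stood out for its copies too. It had 107 reads in the MH library and 285 in the SH library, few for a subunit, whereas 8 counted copies out of 14 held 299 and 591. Its log2 ratio was 0.09 (-0.23 to 0.43) alone and -0.21 (-0.38 to -0.04) with the copies added. In all, 35 members had an annotated near-identical copy, 28 had 1 or more that was counted, and for 5 the copies held over 25% as many MH reads as the gene itself. These were Atp5l, Atp5g2, Cox7c, Atp5h and Ndufb2. Whether reads of the genes were placed on their copies could not be told from the counts. The median log2 ratio of the 86 genes was 0.13 with the copies added, and that of complex I was 0.05 in place of 0.08.

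Complex III takes electrons from ubiquinol to cytochrome c. Of its 8 genes, 5 had intervals above 0 and none below. The highest was Uqcr10, a small subunit, with 89.6 RPM in the MH library and 114 in the SH library, a log2 ratio of 0.34 (0.26 to 0.43). The core proteins differed: Uqcrc1 had a log2 ratio of 0.26 (0.20 to 0.31), and Uqcrc2 one of -0.02 (-0.09 to 0.04). Uqcrfs1, the Rieske iron-sulfur protein, had a log2 ratio of 0.17 (0.10 to 0.24), and Uqcrh, the hinge protein, one of 0.21 (0.13 to 0.29). The small subunits Uqcrq and Uqcrb had log2 ratios of 0.08 (0.03 to 0.13) and 0.09 (-0.01 to 0.19). The lowest was Uqcr11, at 78.4 and 74.1 RPM, a log2 ratio of -0.08 (-0.18 to 0.01).

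Complex IV, cytochrome c oxidase, reduces oxygen. Of its 17 genes, 11 had at least 10 reads, 8 of these had intervals above 0, and Cox7c and Cox6a1 had intervals below 0. Cox6b1 and Cox8a were the highest with at least 200 reads, with log2 ratios of 0.29 (0.22 to 0.36) and 0.28 (0.21 to 0.35). Cox4i1, the largest nuclear subunit, was at 303 RPM in the MH library and 302 in the SH library. Cox6a1 stood at 278 and 266 RPM, a log2 ratio of -0.06 (-0.11 to -0.01). Cox7c had the lowest ratio, -0.13 (-0.24 to -0.03).

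Several subunits of complex IV exist as isoforms used by different tissues, and in both libraries nearly all reads came from the isoform known from liver. Cox4i2, the isoform known from lung, had 0 reads in either library, as did Cox8b, Cox8c and Cox7b2. The muscle isoform Cox6a2 had 2 reads in the MH library and 3 in the SH library, and Cox6b2, known from testis, had 1 and 6. A count of 0 allows a level of up to 0.177 RPM in the MH library and 0.0708 RPM in the SH library. The exception was Cox7a1, the isoform known from heart and skeletal muscle (chr7:30184144-30186078, 4 exons). It had 9 reads in the MH library and 59 in the SH library, which is 0.530 and 1.39 RPM and a log2 ratio of 1.33 (0.37 to 2.59), and it passed the minimum of 10 reads through the SH library. Its liver counterpart Cox7a2 had 1779 and 4995 reads, so Cox7a1 remained a minor isoform in both. Per length of the main coding transcript, Cox7a1 stood at 1.09 and 2.87 RPKM and Cox7a2 at 159 and 179. Cox7a2l, a relative that takes part in joining complexes III and IV, had 360 and 791 reads and a log2 ratio of -0.18 (-0.36 to 0.00).

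Complex I, NADH dehydrogenase, showed the smallest median and the widest mix. Of 37 genes, 15 had intervals above 0, 3 had intervals below 0 (Ndufb4, Ndufs8 and Ndufb11) and 19 included 0. Its nuclear core genes include those for the subunits that carry the flavin and the iron-sulfur clusters. Ndufv1, the flavoprotein that receives electrons from NADH, had 166 RPM in the MH library and 204 in the SH library, a log2 ratio of 0.30 (0.23 to 0.36). Its partner Ndufv2 had one of 0.19 (0.08 to 0.29), and Ndufv3, an accessory subunit of the same tip, one of 0.21 (0.10 to 0.32). The intervals of all 3 Ndufv genes were thus above 0.

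Further core genes differed from each other. Ndufs3, in the arm that reaches into the matrix, had a log2 ratio of 0.20 (0.08 to 0.33). Ndufs1, the largest core protein, and Ndufs7 had intervals that included 0, with log2 ratios of 0.05 and -0.05. Ndufs8, which carries iron-sulfur clusters in the same arm, had 54.4 and 49.7 RPM, a log2 ratio of -0.13 (-0.24 to -0.02). The 30 genes outside the core, which by symbol take in Ndufa4, had a median of 0.06. Among them the 14 genes whose symbols begin with Ndufa, which take in Ndufa4 and Ndufab1, had a median of 0.06. The 10 Ndufb genes of the membrane arm had one of 0.05. The ratios of Ndufc1 and Ndufc2 were below 0, with intervals that included it.

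The extremes of complex I were accessory genes. Ndufa5 had 263 reads in the MH library and 818 in the SH library, a log2 ratio of 0.32 (0.12 to 0.52). Ndufb4 (chr16:37647170-37654453, 3 exons), a subunit of the membrane arm, had 176 and 311 reads, which is 10.4 and 7.34 RPM. Its log2 ratio was -0.50 (-0.77 to -0.22), 1.41-fold higher in the MH library. Per length of the main coding transcript it had the lowest level of complex I, 10.7 and 7.56 RPKM, whereas by the union of exons Ndufb2 was the lowest, and the 1 annotated copy of its coding sequence was not among the counted symbols. Ndufa4, named for complex I but known to sit in complex IV, had 3421 and 9326 reads and a log2 ratio of 0.13 (0.07 to 0.18). Its relative Ndufa4l2, known from hypoxia, had 11 and 49 reads and a log2 ratio of 0.79 (-0.13 to 1.93).

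**Figure D3:**
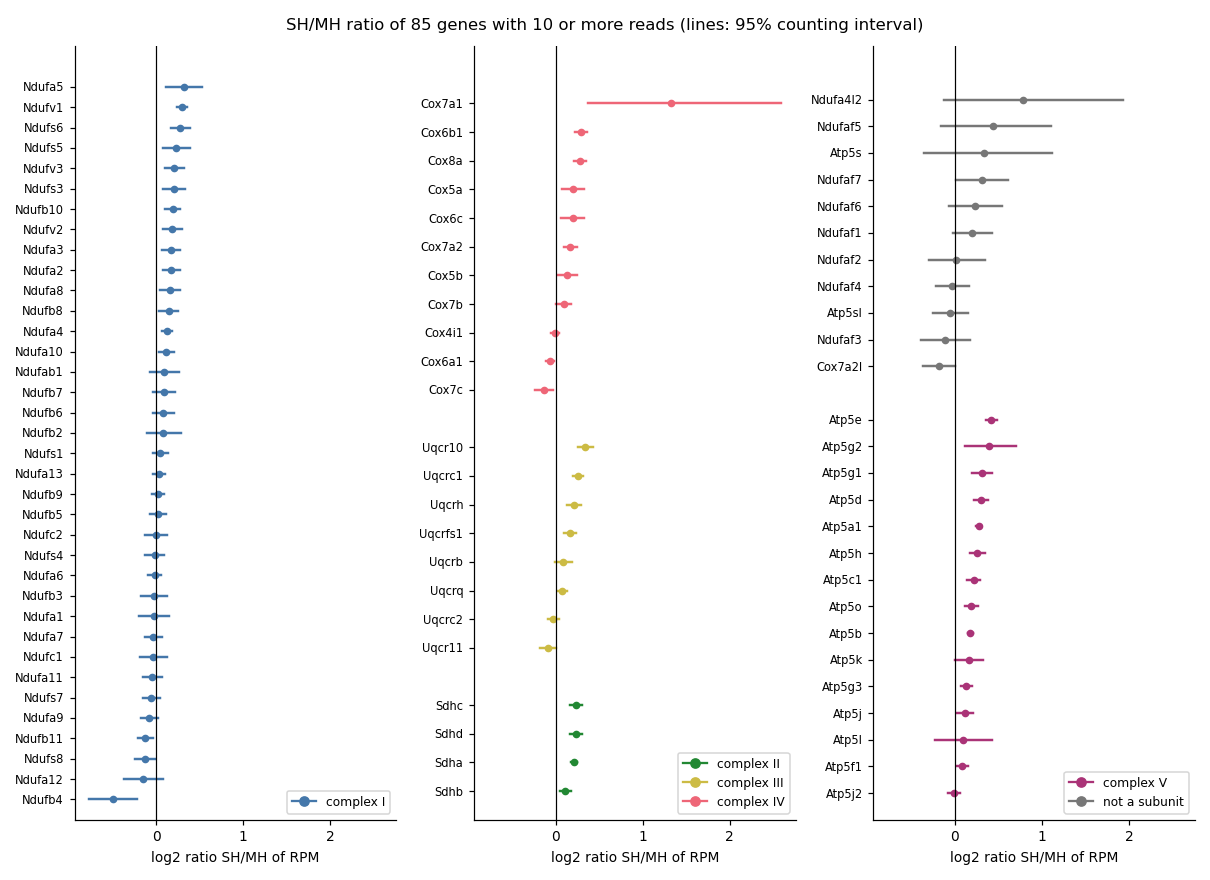
Log2 ratio of SH over MH (x axis) of 85 of the 86 genes that passed the minimum of 10 reads (y axis, sorted within complexes), 1 library of each population, with lines for the 95% counting interval. Complexes II and V lie almost wholly right of 0, complex I straddles it with Ndufb4 at -0.50, and Cox7a1 at 1.33 has a wide interval from few reads.

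The 11 matched genes that are no subunits had lower counts and wide intervals. They summed to 0.0104% of the reads in the MH library and 0.0106% in the SH library, a log2 ratio of 0.03 (-0.05 to 0.11). Ndufaf1 to Ndufaf7, assembly factors of complex I, had log2 ratios from -0.12 for Ndufaf3 to 0.44 for Ndufaf5, and Ndufaf7 alone had an interval above 0, with 7.36 and 9.14 RPM and a log2 ratio of 0.31 (0.02 to 0.61). Atp5s, with 22 and 70 reads, had a log2 ratio of 0.33 (-0.36 to 1.11), and Atp5sl one of -0.05 (-0.25 to 0.15).

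Levels of the subunits differed widely between genes although each complex holds its subunits in fixed proportion. Per length of the main coding transcript, the 75 subunit genes with at least 10 reads had a median of 102 RPKM in the MH library and 103 in the SH library. The highest was Uqcrq, at 690 and 729 RPKM, and the lowest was Cox7a1. The medians by complex in the MH library were 69.2 RPKM for complex I, 135 for II, 154 for III, 120 for IV and 112 for V. The length used matters here, since the union of all exons gave a median of 54.7 RPKM over the 75 genes in the MH library. By that length the highest gene was Cox6a1 and the lowest Atp5l in both libraries.

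**Figure D4:**
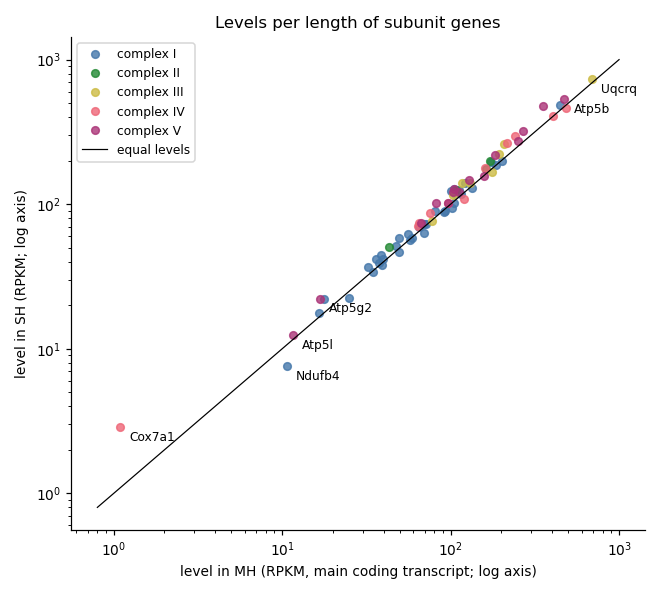
Level of 75 subunit genes in the MH library (x axis) and the SH library (y axis) in RPKM of the main coding transcript, both axes logarithmic, 1 point a gene, colored by complex. The points follow the line of equal levels from 1.09 RPKM in MHs (Cox7a1) to 690 (Uqcrq), and Ndufb4 lies below it.

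Genes that work with the chain were compared from lists of the same pathway. The 13 citric acid cycle genes had a median log2 ratio of 0.20, 9 had intervals above 0 and none below. Their highest was Ogdh, of the oxoglutarate dehydrogenase complex, at 0.32 (0.26 to 0.38), and their lowest Idh3a at 0.01 (-0.21 to 0.24). The 9 electron carriers and entry enzymes outside the rule had a median of 0.18, with 5 intervals above 0 and 2 below. Etfa and Etfb, which carry electrons from fatty acid oxidation, had log2 ratios of 0.23 and 0.22, and Cyc1, cytochrome c1 of complex III, one of 0.18 (0.11 to 0.26). Against this, Gpd2, the mitochondrial glycerol phosphate dehydrogenase, had one of -0.37 (-0.53 to -0.21), and Prodh, proline dehydrogenase, one of -0.23 (-0.31 to -0.16). Dhodh was the highest of the list at 0.31 (0.01 to 0.62).

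Among the partners of the ATP synthase, Slc25a3 and Slc25a5, the phosphate carrier and the main adenine nucleotide carrier of liver, had log2 ratios of 0.21 (0.15 to 0.26) and 0.20 (0.15 to 0.25). Atpif1, the inhibitor of the ATP synthase, had 69 reads in the MH library and 238 in the SH library, a log2 ratio of 0.46 (0.08 to 0.88). Slc25a4, the carrier of muscle, had 8 and 4 reads, a log2 ratio of -2.24 (-4.50 to -0.42), and Ucp2, an uncoupling protein strongly expressed in macrophages, had 23 and 16, a log2 ratio of -1.83 (-2.86 to -0.86). Both were on the side of the endothelial, macrophage and stellate markers, whose part in these values was not tested.

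The 28 counted assembly factors outside the rule had a median of 0.05, near that of all genes, and 22 of them had intervals that included 0. Cox14 had 242 and 850 reads and a log2 ratio of 0.49 (0.29 to 0.71). Cox17, a copper chaperone of complex IV, had 34 and 45 reads and a log2 ratio of -0.92 (-1.59 to -0.23). The 76 mitochondrial ribosomal protein genes had a median of 0.09, and the 94 cytosolic ribosomal protein genes one of 0.01.

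The 12 regulators of mitochondrial genes had a median log2 ratio of 0.10. Ppargc1b, a coactivator of oxidative metabolism, had 131 reads in the MH library and 446 in the SH library, a log2 ratio of 0.44 (0.16 to 0.74). Its partner Esrra, which encodes ERR alpha, had 406 and 1294 reads and a log2 ratio of 0.35 (0.19 to 0.52). Gabpa had one of 0.21 (0.05 to 0.38), and the intervals of Nrf1 (0.17) and Yy1 (0.07) included 0. The lowest was Tfb2m, a mitochondrial transcription factor, at -0.36 (-0.61 to -0.11).

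The 13 subunits encoded by the mitochondrial genome did not follow a single ratio. Their median log2 ratio was 0.32, with 9 intervals above 0 and 3 below. The gene mt-Nd1 had 8755 reads in the MH library and 35371 in the SH library, a log2 ratio of 0.70 (0.66 to 0.73), and mt-Cytb one of 0.63 (0.59 to 0.67). Next came mt-Nd6 and mt-Nd4 at 0.54 (0.41 to 0.67) and 0.38 (0.32 to 0.44). At the other end, mt-Nd5 had a log2 ratio of -0.28 (-0.33 to -0.23). By far the most reads belonged to mt-Co1, which held 175342 of the 218755 MH reads of these genes and had a log2 ratio of -0.04 (-0.05 to -0.03), so the sum of the 13 genes, 12884 RPM in the MH library and 13289 in the SH library, followed it. Apart from mt-Nd6, which lies on the other strand, these genes are cut from a common precursor RNA.

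**Figure D5:**
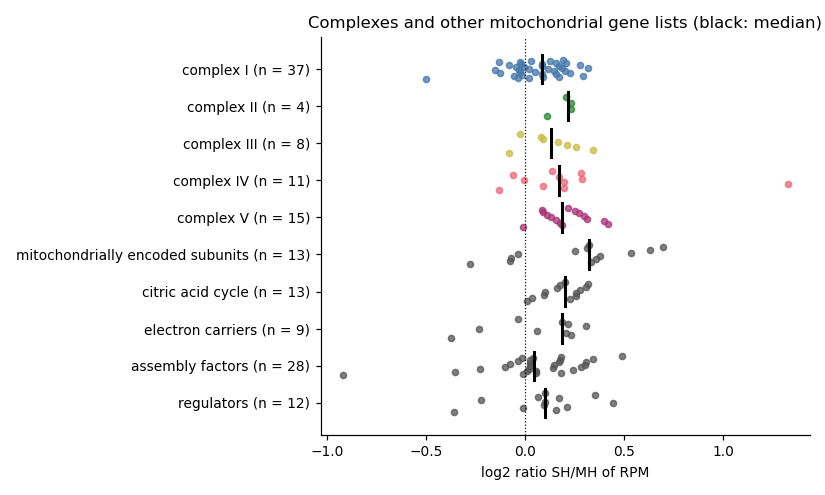
Log2 ratio of SH over MH (x axis) of single genes with at least 10 reads, by complex and by list of related genes (y axis), with the median as a black line. Medians run from 0.05 for assembly factors to 0.32 for the mitochondrially encoded subunits, whose single genes run from -0.28 to 0.70. Complex IV (-0.13 to 1.33) and the assembly factors (-0.92 to 0.49) spread further.

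Properties of the transcripts that can move counts were set beside the ratios. Members are short, with a median main coding transcript of 771.5 bases, where the 4557 protein-coding genes with at least 1000 reads had a median of 2809. In the bin of up to 600 bases, the median log2 ratio was 0.14 for 28 members and 0.04 for 75 other protein-coding genes with at least 1000 reads. Ratios moved with GC content among these other genes, whose median was -0.04 up to 42% GC and 0.10 above 54% GC. Members had a higher median than other genes of the same GC bin in each of the 5 bins. The medians were 0.09 against -0.04 up to 42%, 0.05 against 0.00 up to 46% and 0.19 against 0.02 up to 50%. In the upper bins they were 0.17 against 0.06 up to 54%, and 0.16 against 0.10 above it. The read minimums were unlike, at least 10 for members and at least 1000 for other genes. The part of length and GC content in the members' ratios was not tested.

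Overlapping genes were also examined, since the counting rule for strand was not given. Exons of another gene covered over 15% of Ndufa13, Ndufb6, Ndufb9, Ndufaf2, Uqcrc2 and Atp5o, and these other genes were at or near 0 reads or not among the counted symbols. Atp5j shares 12.7% of its exon bases with Gabpa, which lies on the opposite strand. Other overlaps below 15% also involved genes with many reads on the opposite strand. Shmt2 (2200 reads in the MH library and 6606 in the SH library) covered 2.92% of Ndufa4l2. Vps13b (1162 and 2680) covered 7.01% of Cox6c, and Rbm10 (369 and 930) covered 12.9% of Ndufb11. Whether reads of such genes were counted for the members was not tested.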

How the data were processed

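RNA of 1 MH and 1 SH sample was sequenced after poly(A) selection on an Ion Proton system. The files deposited by the authors hold read counts, as whole numbers for each gene symbol that were not normalized. Reads were trimmed and aligned to mm10 in CLC Genomics Workbench per the methods, which name RPKM as the unit, and the program, annotation and strand rule behind the deposited counts are not given in the sources used here. The members, lists and named genes were chosen with earlier results of these data known. Named were core subunits, isoform pairs, all genes of complexes II, III and V, extremes of each complex, called genes and extremes of the other lists, and the genes of the YY1 motif, of the overlaps and some further members were chosen after their values were seen. The motifs were also chosen then, after Sp1, TATA, CRE and CCAAT motifs and a CG run had been looked at.

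Counts were divided by the library total, 16979136 reads for MHs and 42356444 for SHs. Ratios, Clopper-Pearson intervals and medians were computed in Python 3.11.15 with scipy 1.17.1, after a check on simulated data. Reads carried no molecular identifiers, so intervals and floors cover counting error only. Called means a ratio of at least 1.3-fold and an interval that leaves out 0, among genes whose reads in the 2 libraries sum to at least 10.

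Coordinates, lengths and GC came from GENCODE M21 (GRCm38, the build of mm10), which matched 92 of 92 members, 1 of them through a RefSeq synonym. Per-length levels are reads per kilobase per 1000000 counted reads. Near-identical copies were found with blastn 2.17.0, as annotated genes at least 90% identical over at least 50% of the longest coding sequence. The values of 1 gene are not reported here, and it is left out of the plot with gene names. No coding sequence was translated and no protein sequence is shown. Alternatives were TMM scaling (edgeR 4.0.16), size factors (DESeq2 1.42.0), totals that leave out the top 10 genes by reads or the mitochondrial genes, 2 added reads, other read minimums and folds, smaller member lists, Ndufa4 in complex IV, and other lengths. The minimum of 1000 reads, the added copies and the main coding transcript's length were added after seeing the data.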

Additional observations from a re-analysis of the deposited data

How the results depend on the processing

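No paired analysis was possible because each population had 1 library. There was also no replicate to leave out and no p-value. The median log2 ratio over the members stayed between 0.12 and 0.17 under 10 alternatives. By complex it ran from 0.05 to 0.12 for complex I, 0.22 to 0.25 for II, 0.12 to 0.16 for III, 0.09 to 0.20 for IV and 0.18 to 0.22 for V. The low end for complex I came with the reads of copies added, and that for complex IV with no read minimum, which takes in the 6 isoforms under 10 reads. The median of the 11 genes that are no subunits was -0.11 with at least 1000 reads, which leaves Ndufaf4 and Cox7a2l. Another scaling moved all log2 ratios by 0.03 at most, which is less than the width of any member's interval. An interval therefore could not pass from wholly below 0 to wholly above it or back. With 2 reads added, all 86 ratios stayed within their main intervals. Ratios near 0 did change sign: 62 of the 86 were above 0 in the main setting, 64 with TMM and 72 without the top 10 genes. With the reads of copies added, the sign changed for Atp5l (-0.21), Atp5g2 (-0.01, no longer called) and Ndufb2, whose interval then ran from -0.17 to 0.17. The intervals of Atp5l (-0.38 to -0.04), Uqcr11 (-0.20 to -0.02) and Cox7a2l (-0.35 to -0.003) then lay below 0. That of Cox7b (-0.03 to 0.13) then included 0, so the counts of intervals above or below 0 depend on how copies are treated.

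Counts of called genes followed the threshold by construction. At 1.5-fold and at 2-fold, 1 was higher (Cox7a1) and 0 were lower, with at least 1000 reads 1 was higher (Atp5e) and 0 lower, and without a fold threshold 45 were higher and 5 lower.

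Scaling moved every sum the same way. The log2 ratio of all subunits was 0.15 with TMM and with size factors, 0.16 without mitochondrial genes and 0.18 without the top 10 genes, and that of all members 0.15, 0.15, 0.16 and 0.18. Without the top 10 genes the sums were 0.12 for complex I, 0.23 for II, 0.17 for III, 0.12 for IV and 0.24 for V, a shift of 0.03 for all genes, and 2 in place of 5 members had intervals below 0. The median level of the members in MHs was 44.0 RPKM by the union of exons, 63.2 by the longest transcript and 86.3 by the main coding transcript. Depth limited the genes under 200 reads most, such as Cox7a1 and Ndufa4l2.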
